A study of Homo sapiens with 8 samples.

Results

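Transcript levels of 9 transcription factors that steer myeloid cell fate were followed in a human leukemia cell line after guides against CEBPD: SPI1, IRF8, IRF4, GFI1, GFI1B, KLF4, EGR2, IKZF1 and MYB. They were chosen by name, as the rows of the count table that carry these symbols, and each symbol was found once among the 23562 rows. OCI-AML5 is an established suspension line grown from an acute myeloid leukemia. The cells had been transduced with lentiCRISPRv2, a lentiviral vector that delivers the nuclease Cas9 together with a guide RNA. There were 4 libraries with non-specific guides (sgControl 1 to 4) and 4 with guides against CEBPD (sgCEBPD 1 to 4), a C/EBP family transcription factor of myeloid cells. Every library carried a different guide, and both groups carried the vector and Cas9, so no library represents untransduced cells. The labels do not say whether the cells were pools or clones or whether any transduction was repeated. The p-values therefore measure only the spread between these libraries, which includes the spread between guides.

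As background, SPI1 encodes PU.1, the ETS factor that opens most monocyte and macrophage enhancers, and IRF8 and IRF4 bind beside it on composite sites. GFI1 and GFI1B are repressors that recruit the LSD1 demethylase complex and oppose PU.1 output, with GFI1 favouring granulocytes and GFI1B favouring red cell and platelet precursors. KLF4 and EGR2 act on the monocyte and macrophage side, IKZF1 (Ikaros) is a zinc finger factor of lymphoid and myeloid progenitors, and MYB keeps progenitors and many acute myeloid leukemias immature and dividing.

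Library totals lay between 10217751 and 11521209 counts. CEBPD itself was measured at 216, 204, 205 and 202 CPM (counts scaled to library size, with TMM normalisation) in sgControl 1 to 4. It was measured at 107, 209, 195 and 164 CPM in sgCEBPD 1, 2, 3 and 4. The transcript was thus below all controls with guides 1, 3 and 4, by little with guide 3, and within the control range with guide 2. This transcript level does not measure how much protein an edited gene still makes. The first principal component of log2 CPM (56.7% of the variance) placed sgCEBPD 3 at 96.0 and the other 7 libraries between -21.3 and 0.57. The library sgCEBPD 3 is therefore shown apart, and each comparison is given with all 8 libraries and with the 7 that remain without it. Summed marker levels of monocytes and macrophages were 570.1 to 617.8 CPM in the controls, 573 to 767 CPM in sgCEBPD 1, 2 and 4, and 1200 CPM in sgCEBPD 3. Of 11 such markers in the table, 8 were tested and 6 of these were higher in sgCEBPD 3 than in any other library. The summed T cell markers were 0.700 to 1.56 CPM in the controls, 0.842 to 2.33 CPM in sgCEBPD 1, 2 and 4, and 80.9 CPM in sgCEBPD 3, where CD3D stood at 52.7 CPM. Of 5 T cell markers 3 were in the table, and CD3D had no count in 4 of the other 7 libraries. The rest of that sum was nearly all TRAC (27.8 CPM in sgCEBPD 3), while CD3G had only 4 counts there (0.393 CPM). CD3E and CD2 were not in the table. The 6 cycling-cell markers summed to 1859 CPM in sgCEBPD 3 and to between 2335 and 2476 CPM in the other 7 libraries, with 5 of the 6 lowest in sgCEBPD 3 and CCNB1 highest there. The part of these differences in the results below was not tested. Of all genes tested, 34.8% lay above the other 7 libraries in sgCEBPD 3 and 34.9% lay below. The listed markers of myeloid leukemia cells (8 of 8 in the table) summed to between 770.5 and 918 CPM in those 7 libraries and to 1490.1 CPM in sgCEBPD 3. ANPEP and CSF2RA added almost nothing, with at most 0.473 and 1.08 CPM in any library. The sum in sgCEBPD 3 was carried by PTPRC (943 CPM) and CSF3R (418 CPM), the 2 of the 6 tested genes that were highest there. KIT (2.46 CPM), CD34 (7.86 CPM) and MPO (11.8 CPM) were lowest there. In bulk RNA, fewer cells of a type and less RNA per cell cannot be told apart.

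Of the 9 factors, 7 had enough counts to be tested with edgeR's quasi-likelihood test in both fits, and GFI1B and EGR2 were left out by its filter on low counts. None of the 7 passed an adjusted p of 0.05 (Benjamini-Hochberg over all genes tested), with 8 libraries or with 7. With 8 libraries 11 of 13838 genes passed (0.0795%), and with 7 libraries 283 of 14047 genes passed (2.01%). The unadjusted edgeR p of 3 of the 7 factors was under 0.05 with 8 libraries and of 4 with 7 libraries, beside 11.4% and 15.5% of all genes tested. DESeq2 called 0 of them with 8 libraries, where it called 2.11% of all genes tested, and 3 with 7 libraries (IRF8, IRF4 and MYB), where it called 4.24%. limma-voom called 0 in both, against 0.0939% and 1.55% of all genes tested. The libraries of the 2 groups did not overlap for 3 tested factors in both comparisons: IRF8 and IKZF1 were higher in every sgCEBPD library and MYB was lower in every one. With 8 libraries 4.96% of all genes tested were higher without overlap and 4.62% were lower, and with 7 libraries the shares were 6.89% and 7.5%. The median log2 fold change (sgCEBPD over sgControl) of the tested factors was 0.18 with 8 libraries and 0.07 with 7, beside 0.00029 and 0.0011 over all genes tested. For sgCEBPD 3, 2 of the 7 tested factors (SPI1 and IKZF1) lay above the other 7 libraries and 1 (IRF4) lay below. Among all genes tested 34.8% lay above and 34.9% lay below, so such a position was common in this library.

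**Figure D1:**
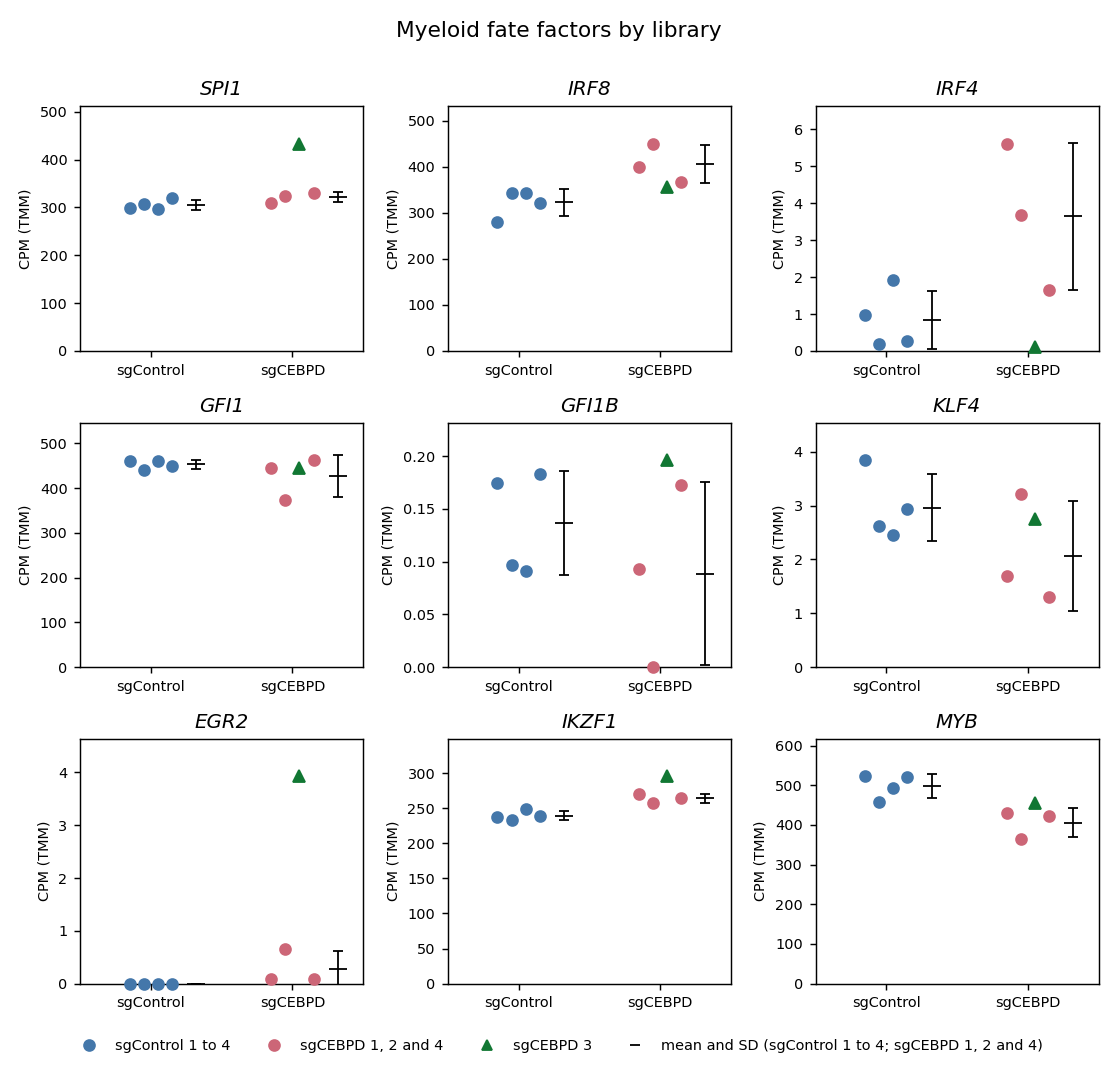
Each panel plots the CPM (TMM) of 1 factor in the 8 libraries, with triangles for sgCEBPD 3 and bars for the mean and SD of sgControl 1 to 4 and of sgCEBPD 1, 2 and 4 (lower bars stop at 0). IRF8 and IKZF1 lie higher and MYB lower in the sgCEBPD libraries, SPI1 stands apart only in sgCEBPD 3, at 433 CPM, and EGR2 is at 0 in all 4 controls.

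Ordered by level per kilobase of annotated exon (GENCODE 29), SPI1 was the most abundant of the 9 in the control libraries at 148 ± 4.91 CPM per kilobase (SD, n = 4). GFI1 followed at 137 ± 2.98, MYB at 90.8 ± 5.47, IRF8 at 62.4 ± 5.78 and IKZF1 at 21.9 ± 0.588 CPM per kilobase. The other 4 lay lower, with KLF4 at 0.810 ± 0.170, IRF4 at 0.142 ± 0.135 and GFI1B at 0.0224 ± 0.0081 CPM per kilobase, and EGR2 without a count. The control libraries of no pair of neighbours in this order overlapped, but SPI1 and GFI1 were close (143.7 to 154.3 against 133.5 to 139.7 CPM per kilobase), and GFI1B rested on 1 or 2 counts a library. The order was the same when the length of the longest transcript was used. The line thus held abundant PU.1, GFI1, MYB, IRF8 and Ikaros transcripts and only traces of the other 4.

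Promoter sequence is shown for 4 of the factors, so that the stretch before a transcript start can be read beside the gene's level. RefSeq promoter windows (GRCh38.p14), from 250 bases before to 50 bases after a transcript start, were held for 8 of the 9 factors, in 16 windows. MYB and IKZF1 are shown because their groups did not overlap, EGR2 because it had no count in the controls, and GFI1 because its window holds the 8 letters of a symmetric C/EBP site. These 4 were picked after their values were seen. Each is printed 5′ to 3′ on the gene's own strand, from 250 bases before a RefSeq transcript start up to that start, or up to the first annotated exon within the window. The MYB start lies just before the gene's annotated first base, while the other 3 starts lie inside the annotated gene, 777 bases (GFI1), 648 bases (IKZF1) and 103534 bases (EGR2) from its first base. Capitals mark matches, on either strand, to the C/EBP letters TTGCNNAA, the PU.1 core AGGAAG (or the longer GAGGAAGT, which contains it), the interferon regulatory factor letters GAAANNGAA, the GFI1 core AATCAC, the EGR letters GTGGGCG (or the longer GCGTGGGCG, which contains them) and the KLF letters GGGTGTGG.
GFI1 window 2, chr1:92486100-92486349, minus strand: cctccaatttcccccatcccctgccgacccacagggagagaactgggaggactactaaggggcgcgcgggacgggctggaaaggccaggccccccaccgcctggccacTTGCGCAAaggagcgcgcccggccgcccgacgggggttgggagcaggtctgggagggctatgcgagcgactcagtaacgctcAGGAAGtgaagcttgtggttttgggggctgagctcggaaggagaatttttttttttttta
MYB window 1, chr6:135181058-135181307, plus strand: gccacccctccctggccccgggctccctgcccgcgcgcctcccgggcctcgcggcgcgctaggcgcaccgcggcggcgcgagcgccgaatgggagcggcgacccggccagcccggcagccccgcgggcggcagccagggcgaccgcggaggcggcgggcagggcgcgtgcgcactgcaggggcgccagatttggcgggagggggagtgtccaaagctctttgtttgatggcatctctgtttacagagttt
IKZF1 window 1, chr7:50304466-50304668, plus strand: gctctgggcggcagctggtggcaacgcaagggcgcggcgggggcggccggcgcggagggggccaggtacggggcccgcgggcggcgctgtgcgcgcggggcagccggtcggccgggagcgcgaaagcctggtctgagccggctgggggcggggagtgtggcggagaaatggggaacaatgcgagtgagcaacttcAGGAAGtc
EGR2 window 3, chr10:62816367-62816616, minus strand: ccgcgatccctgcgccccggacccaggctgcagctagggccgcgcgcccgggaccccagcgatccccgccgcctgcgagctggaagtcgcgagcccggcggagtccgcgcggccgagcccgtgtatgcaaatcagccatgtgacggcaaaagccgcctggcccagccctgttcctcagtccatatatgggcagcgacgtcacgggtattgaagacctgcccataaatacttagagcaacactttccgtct

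The GFI1 window held the C/EBP letters at 142 bases before the start and the PU.1 core at 60 bases before it, and the IKZF1 window held the PU.1 core at 55 bases before its start. The MYB and EGR2 stretches held none of these letters. Across the factors' 16 windows the C/EBP letters occurred in 3 (of GFI1, GFI1B and IKZF1), beside 10.5% of all 35116 windows of 300 bases in the table. The short PU.1 core occurred in 6 of the 16 (33.6% of all windows) and the longer form in 0 (2.59%). The interferon regulatory factor letters occurred in 1 window, of GFI1B (8.11% of all), and the GFI1 core in 1 window, of IRF8 (10.2%), whose start also lies inside the annotated gene. The short EGR letters occurred in 1 window, another EGR2 window (9.52%), and the longer EGR letters and the KLF letters in 0 (0.795% and 3.28%). The MYB letters AACGG or AACTG occurred in 8 of the 16 windows and in 52.4% of all. Letters of this kind describe the windows and do not show binding.

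Among the activators of the monocyte program, SPI1 (PU.1; GRCh38 chromosome 11, 47354860 to 47378576, minus strand) was at 299, 308, 297 and 319 CPM in sgControl 1 to 4. It was at 310.2, 324 and 329 CPM in sgCEBPD 1, 2 and 4, and at 433 CPM in sgCEBPD 3. The sgCEBPD libraries without guide 3 overlapped the controls, and sgCEBPD 3 lay at 1.42 times the control mean, above every other library. With 8 libraries the log2 fold change of SPI1 was 0.19 (SE 0.11, edgeR adjusted p = 0.508). Without sgCEBPD 3 it was 0.07 (SE 0.04, edgeR adjusted p = 0.473), with means of 306 ± 10.2 (SD, n = 4) and 321 ± 9.93 CPM (SD, n = 3).

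IRF8 (chromosome 16, 85898803 to 85922609, plus strand), the partner of PU.1 in monocytes and dendritic cells, was at 280.3, 343, 344 and 322 CPM in sgControl 1 to 4. It was at 399, 450.1, 356 and 367 CPM in sgCEBPD 1, 2, 3 and 4. Every sgCEBPD library lay above every control, with sgCEBPD 2 the highest and sgControl 1 the lowest of the 8. The gap was narrow for sgCEBPD 3, whose 95% Poisson interval (344 to 368 CPM, counting error only) overlapped that of sgControl 3 (333 to 355 CPM). The log2 fold change of IRF8 was 0.29 with 8 libraries (SE 0.10, edgeR adjusted p = 0.352) and 0.33 with 7 (SE 0.09, edgeR adjusted p = 0.116), where the mean was 25.8% above that of the controls. With 7 libraries IRF8 passed under DESeq2 (adjusted p = 0.00642), and over all settings tried its adjusted p ran from 0.00642 to 0.258. The annotation places MIR6774 within the IRF8 gene.

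IRF4 (chromosome 6, 391739 to 411447, plus strand), which can bind the same composite sites and serves dendritic and lymphoid cells, had few reads. Its counts were 11, 2, 21 and 3 in sgControl 1 to 4 and 60, 39, 1 and 19 in sgCEBPD 1, 2, 3 and 4. The CPM were 0.962, 0.194, 1.91 and 0.275 in the controls and 5.61, 3.69, 0.0982 and 1.64 in the sgCEBPD libraries in that order. Guides 1 and 2 lay above all controls, guide 4 lay within them, and sgCEBPD 3, with a single count, was the lowest of the 8. Its log2 fold change was 1.70 with 8 libraries (SE 0.94, edgeR adjusted p = 0.508) and 2.09 with 7 (SE 0.69, edgeR adjusted p = 0.213). With 7 libraries IRF4 passed under DESeq2 (adjusted p = 0.0491), and over all settings its adjusted p ran from 0.0103 to 0.404. IRF4 was the 1 tested factor whose value in sgCEBPD 3 was over 2-fold from the mean of the other sgCEBPD libraries, which was so for 14.6% of all genes tested.

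The interferon regulatory factor family was read from a list of 9, of which 8 were tested. IRF8 and IRF4 are among the 8 and enter the counts and medians that follow. edgeR called 0 of them in both fits, with 3 at an unadjusted p under 0.05 with 8 libraries and 4 with 7. Such a p was reached by 11.4% and 15.5% of all genes tested in the 8-library and 7-library fits. DESeq2 called IRF8 and IRF4 with 7 libraries and 0 with 8, and limma-voom called 0. DESeq2 called 4.24% of all genes tested with 7 libraries and 2.11% with 8. These shares stand beside the gene lists below as well. The median log2 fold change of the family was 0.32 with 8 libraries and 0.22 with 7, and it was positive for 8 and 6 of the 8 genes. IRF1, the interferon-induced activator, was at 33.8, 39.2, 43.5 and 37.2 CPM in the controls and 44.1, 47.8, 54.4 and 57.3 CPM in sgCEBPD 1, 2, 3 and 4. The groups did not overlap, and its log2 fold change with 7 libraries was 0.37 (SE 0.11, edgeR adjusted p = 0.119).

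Among the repressors, GFI1 (chromosome 1, 92474762 to 92486876, minus strand) was at 461, 441, 461 and 449.9 CPM in sgControl 1 to 4. It was at 445, 374, 444 and 463 CPM in sgCEBPD 1, 2, 3 and 4. The groups overlapped, and sgCEBPD 2 alone lay below the controls, at 82.5% of their mean. The log2 fold change of GFI1 was -0.07 with 8 libraries (SE 0.07, edgeR adjusted p = 0.695) and -0.08 with 7 (SE 0.07, edgeR adjusted p = 0.608). Without sgCEBPD 2 the 7-library value turned to 0.0061.

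GFI1B (chromosome 9, 132944000 to 132991687, plus strand), the paralog of GFI1, had 2, 1, 1 and 2 counts in sgControl 1 to 4 and 1, 0, 2 and 2 in sgCEBPD 1, 2, 3 and 4. Every library lay at or below the level that 3 counts would give (0.259 to 0.295 CPM), so a difference was not detectable at this depth. Its gene overlaps TSC1, and where the counting ignored strand such reads cannot be told apart. The 9 genes listed for the GFI1 corepressor complex were all tested. edgeR called 0 of them in either fit, with 0 and 1 at an unadjusted p under 0.05 in the 8-library and 7-library fits, and DESeq2 and limma-voom also called 0. KDM1A, which encodes the demethylase LSD1, was at 228 ± 8.69 CPM in the controls (SD, n = 4) and 243 ± 15.8 CPM in sgCEBPD 1, 2 and 4 (SD, n = 3), with a log2 fold change of 0.10 (SE 0.05, edgeR adjusted p = 0.442). GSE1, another subunit, was at 170.3 to 185 CPM in the controls, at 186, 192 and 207 CPM in sgCEBPD 1, 2 and 4 and at 275 CPM in sgCEBPD 3, without overlap (edgeR adjusted p = 0.253 with 7 libraries).

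KLF4 (chromosome 9, 107484852 to 107490482, minus strand), an inducer of monocyte maturation, was at 3.85, 2.62, 2.45 and 2.94 CPM in sgControl 1 to 4. It was at 1.68, 3.22, 2.75 and 1.30 CPM in sgCEBPD 1, 2, 3 and 4. Guides 1 and 4 lay below all controls and guides 2 and 3 within them, on 15 to 44 counts a library. The log2 fold change of KLF4 was -0.41 with 8 libraries (SE 0.31, edgeR adjusted p = 0.606) and -0.53 with 7 (SE 0.32, edgeR adjusted p = 0.478).

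Of 16 listed KLF genes, 12 were tested, KLF4 among them. None passed in edgeR with 8 libraries (3 at an unadjusted p under 0.05, beside 11.4% of all genes tested), nor in DESeq2 or limma-voom. With 7 libraries KLF10 fell under all 3 tools, where edgeR called 2.01% of all genes tested, DESeq2 4.24% and limma-voom 1.55%. KLF10, an early gene of TGF-beta signalling, was at 18.3, 19.5, 19.2 and 19.2 CPM in sgControl 1 to 4 and at 13.1, 9.55 and 12.9 CPM in sgCEBPD 1, 2 and 4. In sgCEBPD 3 it was at 20.2 CPM, above the controls. Its log2 fold change was -0.68 with 7 libraries (SE 0.12, edgeR adjusted p = 0.0207), and the adjusted p was 0.445 with sgCEBPD 3 included. KLF6, a widely expressed early-response relative, was at 35.8 to 38.8 CPM in the controls, at 45.2, 54.8 and 41.1 CPM in sgCEBPD 1, 2 and 4 and at 101 CPM in sgCEBPD 3, without overlap (edgeR adjusted p = 0.103 with 7 libraries). The call of KLF10 was lost without sgControl 1, 3 or 4 (edgeR adjusted p = 0.0553 to 0.0629).

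EGR2 (chromosome 10, 62811996 to 62919900, minus strand), an immediate-early factor that takes part in macrophage commitment, had 0 counts in all 4 controls, where 3 counts would be 0.262 to 0.291 CPM. It had 1, 7 and 1 counts in sgCEBPD 1, 2 and 4, or 0.0936, 0.662 and 0.0864 CPM, and 40 counts in sgCEBPD 3, or 3.93 CPM (95% Poisson interval 2.81 to 5.35). The measured 3.93 CPM was 13.5 times the level that 3 counts would give in the shallowest control library, counting error aside. This rests on 1 library, and the reading in sgCEBPD 1 and 4 is a single count. With no filter on low counts, EGR2 did not pass in edgeR (adjusted p = 0.541 with 8 libraries and 0.176 with 7).

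Of the tested relatives of EGR2, EGR1 and NAB2 were also highest in sgCEBPD 3, and NAB1 was not (18.0 CPM, within the range of the other 7 libraries). EGR1, another immediate-early factor, ran from 3.76 to 7.34 CPM in the 7 libraries without guide 3 and reached 25.3 CPM in sgCEBPD 3. NAB2, an inducible corepressor of EGR factors, ran from 10.5 to 20.5 CPM in those libraries and reached 52.1 CPM in sgCEBPD 3. Of 6 genes on this list 3 were tested, and edgeR, DESeq2 and limma-voom called 0 in both fits, with 0 at an unadjusted p under 0.05 in each tool. The median log2 fold change was 0.62 with sgCEBPD 3 and -0.02 without it. Of all genes tested, 34.8% lay above the other 7 libraries in sgCEBPD 3. The monocyte markers, the T cell markers CD3D and TRAC, and the cycling markers given above moved in the same library, and their part in this was not tested.

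IKZF1 (chromosome 7, 50304068 to 50405101, plus strand), which encodes Ikaros, was at 238, 233, 248 and 239 CPM in sgControl 1 to 4. It was at 271, 258, 296 and 265 CPM in sgCEBPD 1, 2, 3 and 4. Every sgCEBPD library lay above every control, and sgCEBPD 3 was the highest of the 8. The log2 fold change of IKZF1 was 0.18 with 8 libraries (SE 0.06, edgeR adjusted p = 0.335) and 0.14 with 7 (SE 0.04, edgeR adjusted p = 0.128). The difference was small beside those of IRF8 and MYB, as was the spread: the controls had a mean of 239.7 ± 6.43 CPM (SD, n = 4) and sgCEBPD 1, 2 and 4 of 264.4 ± 6.76 CPM (SD, n = 3). The gene overlaps AC124014.1.

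All 5 Ikaros family genes were tested, IKZF1 among them. edgeR called 0 of them (1 at an unadjusted p under 0.05 with 8 libraries and 2 with 7), and DESeq2 and limma-voom called 0. Beside these stand 11.4% and 15.5% of all genes tested at such an unadjusted p. With 7 libraries all 5 log2 fold changes were positive, with a median of 0.14, and with 8 libraries 3 were positive and 2 negative, with a median of 0.18. IKZF3 (Aiolos), the lymphoid relative, was at 5.86, 11.8, 8.81 and 15.4 CPM in the controls and 16.3, 30.1, 11.3 and 14.8 CPM in sgCEBPD 1, 2, 3 and 4. The groups of IKZF3 overlapped (edgeR adjusted p = 0.312 with 7 libraries).

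MYB (chromosome 6, 135181315 to 135219173, plus strand) was at 523, 459, 492 and 521 CPM in sgControl 1 to 4. It was at 430.1, 364, 455 and 423 CPM in sgCEBPD 1, 2, 3 and 4. Every sgCEBPD library lay below every control, with sgCEBPD 2 the lowest. The gap was again narrow for sgCEBPD 3, whose 95% Poisson interval (442 to 468 CPM) overlapped that of sgControl 2 (446 to 472 CPM). The log2 fold change of MYB was -0.26 with 8 libraries (SE 0.08, edgeR adjusted p = 0.329) and -0.30 with 7 (SE 0.07, edgeR adjusted p = 0.0563). MYB had the lowest adjusted p of the 7 tested factors in both fits and stayed above the threshold. With 7 libraries MYB passed without sgControl 2 (edgeR adjusted p = 0.0325) and under DESeq2 (adjusted p = 0.00246), and over all settings its adjusted p ran from 0.00246 to 0.17. Its gene overlaps the antisense MYB-AS1, and the strand setting of the counting is not known here. An exact two-sided permutation test of log2 CPM gave p = 0.0286 for IRF8, IKZF1, MYB and EGR2 in both comparisons. There were 70 assignments with 8 libraries and 35 with 7, and this is the smallest p either design allows. With 8 libraries, groups that do not overlap always receive it, so it restates that separation and is no further support. The other factors ran from 0.0571 (SPI1) to 0.714 (GFI1B) in this test with 8 libraries. With 7 they ran from 0.0857 (IRF4) to 0.457 (GFI1B). These p-values were not adjusted for the 9 factors examined.

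**Figure D2:**
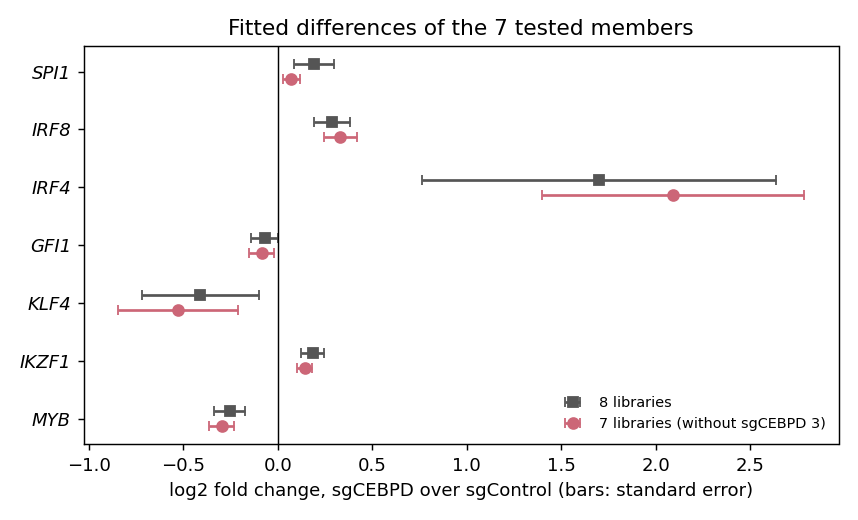
Points give the log2 fold change (sgCEBPD over sgControl) of the 7 tested factors and bars its SE, from the fit with 8 libraries and the fit with 7. IRF4 has the largest value (1.70 and 2.09) and the widest bars, IRF8 (0.29 and 0.33) and MYB (-0.26 and -0.30) lie on opposite sides of 0, and none passed the threshold.

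IRF8 and MYB were also read against each other by library. In the sgCEBPD group the library with the lowest MYB (sgCEBPD 2) had the highest IRF8, and the library with the highest MYB (sgCEBPD 3) had the lowest IRF8. In the control group sgControl 1 had the highest MYB and the lowest IRF8. The groups were separate on both axes and held 4 libraries each, so no correlation is given and the relation within groups was not tested.

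**Figure D3:**
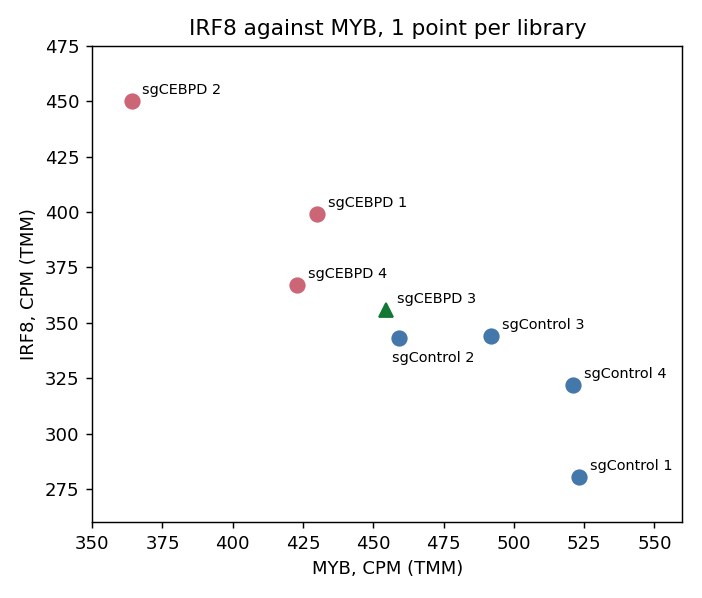
IRF8 (CPM, vertical axis) is plotted against MYB (CPM, horizontal axis), 1 point per library, with axes that do not start at 0. The controls lie at lower IRF8 (280.3 to 344 CPM) and higher MYB (459 to 523 CPM) than the sgCEBPD libraries (356 to 450.1 and 364 to 455 CPM), and sgCEBPD 3 is nearest to the controls.

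The known target genes of PU.1 were read next. Of 17 on the list, 14 were tested, and with 7 libraries 3 fell and 0 rose under edgeR, DESeq2 and limma-voom alike. These tools called 2.01%, 4.24% and 1.55% of all genes tested in that order with 7 libraries. CSF3R, the receptor for granulocyte colony-stimulating factor, was at 304, 288, 298 and 308 CPM in sgControl 1 to 4 and at 170.5, 226 and 188 CPM in sgCEBPD 1, 2 and 4. It reached 418 CPM in sgCEBPD 3, the highest of the 8. The log2 fold change of CSF3R with 7 libraries was -0.62 (SE 0.08, edgeR adjusted p = 0.0117), and with 8 libraries the adjusted p was 0.688. TLR4, the lipopolysaccharide receptor, was at 97.8 ± 4.41 CPM in the controls (SD, n = 4), 71.6 ± 6.86 CPM in sgCEBPD 1, 2 and 4 (SD, n = 3) and 59.1 CPM in sgCEBPD 3. Its log2 fold change with 7 libraries was -0.45 (SE 0.07, edgeR adjusted p = 0.0138). CD33, a myeloid surface lectin, was at 132 ± 9.15 CPM in the controls (SD, n = 4), 103 ± 3.96 CPM in sgCEBPD 1, 2 and 4 (SD, n = 3) and 106 CPM in sgCEBPD 3, with a log2 fold change of -0.35 (SE 0.06, edgeR adjusted p = 0.0199). All 3 calls were narrowly lost without sgControl 1, where the edgeR adjusted p was 0.0506 for CSF3R, 0.0531 for TLR4 and 0.0576 for CD33. Their log2 fold changes with 7 libraries stayed negative in all settings. They ran from -0.74 to -0.53 for CSF3R, -0.53 to -0.38 for TLR4 and -0.38 to -0.31 for CD33. The calls were also lost without sgCEBPD 1 (TLR4, 0.0508, and CD33, 0.0517), and for CD33 without sgControl 3 (0.0561) or sgCEBPD 2 (0.0612).

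The other 11 tested genes of the list did not pass. With 7 libraries 9 of the 14 log2 fold changes were positive and the median was 0.12, and with 8 libraries the median was 0.20. With 8 libraries edgeR called 0 of the 14 (5 at an unadjusted p under 0.05), limma-voom called 0, and DESeq2 called TLR4 and CD33, both lower. An unadjusted edgeR p under 0.05 was reached there by 11.4% of all genes tested, and DESeq2 called 2.11%. In sgCEBPD 3, where SPI1 was highest, 10 of the 14 lay above the other 7 libraries and 1 below. Of all genes tested, 34.8% lay above in that library and 34.9% below, and a tie to SPI1 was not tested. Among them, ITGAM (CD11b), an integrin of mature myeloid cells named here after its values were seen, reached 210.4 CPM there and ran from 4.00 to 21.3 CPM elsewhere. Several genes of this list are also monocyte markers, whose sum in that library is given above.

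IRF8 targets came to 13 genes, all tested, KLF4 among them. edgeR called 0 in both fits, and limma-voom called 0. The unadjusted edgeR p was under 0.05 for 6 with 8 libraries and 5 with 7, beside 11.4% and 15.5% of all genes tested. DESeq2 called the same 2 genes higher in both fits, CST3 and CIITA, which are named for that call. It called 2.11% of all genes tested with 8 libraries and 4.24% with 7. CST3, the protease inhibitor cystatin C, was at 78.2, 60.4, 72.3 and 115 CPM in the controls and 139, 319, 494 and 159.8 CPM in sgCEBPD 1, 2, 3 and 4. CIITA, the master activator of MHC class II genes, was at 126, 152, 169.7 and 114 CPM in the controls and 209, 251, 198 and 174 CPM in sgCEBPD 1, 2, 3 and 4. Neither pair of groups overlapped, and the edgeR adjusted p with 7 libraries was 0.196 for CST3 and 0.192 for CIITA. NF1, which encodes the Ras-inactivating protein neurofibromin, was at 36.4 to 40.4 CPM in the controls, at 29.5, 34.2 and 33.9 CPM in sgCEBPD 1, 2 and 4 and at 40.1 CPM in sgCEBPD 3 (edgeR adjusted p = 0.162 with 7 libraries). The median log2 fold change of the list was 0.23 with 8 libraries and 0.18 with 7. The list does not part genes that IRF8 raises from genes that it lowers, so this median does not measure IRF8 output.

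Genes that GFI1 is known to repress came to 12, of which 10 were tested, IRF8 among them. edgeR called 0 in both fits with 4 at an unadjusted p under 0.05 in each, and limma-voom called 0. That unadjusted p was reached by 11.4% of all genes tested with 8 libraries and 15.5% with 7. DESeq2 called ID1, lower, with 8 libraries and IRF8, higher, with 7, where it called 2.11% and 4.24% of all genes tested. The median log2 fold change was 0.16 with 8 libraries and 0.06 with 7, with 5 of 10 positive in the latter. ID2, an inhibitor of basic helix-loop-helix factors, was at 20.2, 23.0, 16.8 and 15.8 CPM in the controls and 20.3, 30.3, 45.9 and 26.0 CPM in sgCEBPD 1, 2, 3 and 4, with overlapping groups (edgeR adjusted p = 0.246 with 7 libraries). E2F6, a repressor of the E2F family, was at 47.9 to 50.7 CPM in the controls and at 43.1, 37.7, 28.5 and 45.3 CPM in sgCEBPD 1, 2, 3 and 4, all below the controls (edgeR adjusted p = 0.175 with 7 libraries).

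MYB targets came to 12 genes, of which 11 were tested. edgeR, DESeq2 and limma-voom called 0 in both fits, and edgeR had 0 at an unadjusted p under 0.05 in both. The median log2 fold change was -0.14 with 8 libraries and -0.04 with 7, and 7 of the 11 were negative in each. In sgCEBPD 3, 7 of the 11 lay below the other 7 libraries and 2 above, although MYB itself was nearest to the controls there. The 2 above were CCNB1 and CCNA1, which reached 1171 CPM there and ran from 397 to 523 CPM elsewhere. Of all genes tested, 34.9% lay below in that library and 34.8% above. MYC, the proliferation factor, was at 883 ± 56.4 CPM in the controls (SD, n = 4), 829.6 ± 59.1 CPM in sgCEBPD 1, 2 and 4 (SD, n = 3) and 471 CPM in sgCEBPD 3. KIT, the stem cell factor receptor, was at 23.6, 29.1, 29.8 and 51.9 CPM in the controls and 18.1, 24.5, 2.46 and 26.1 CPM in sgCEBPD 1, 2, 3 and 4. Of the 6 cycling-cell markers, 5 were lowest in the same library and CCNB1, which is also on the MYB list, was highest there (158 CPM). Their part in this was not tested.

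**Figure D4:**
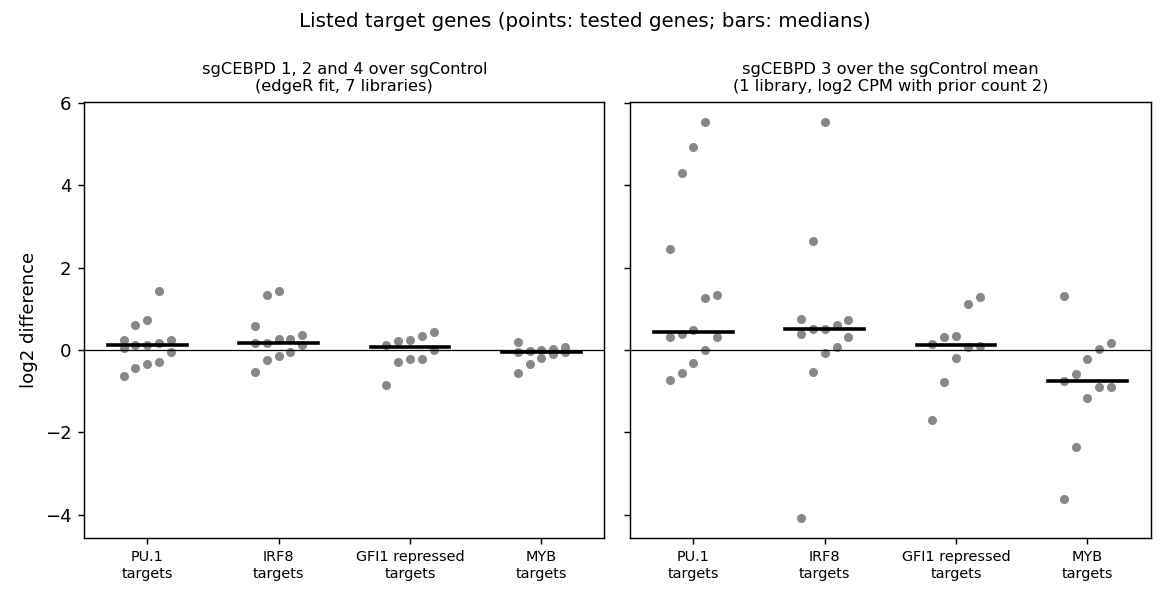
The left panel plots the log2 fold change with 7 libraries of the listed targets of PU.1, IRF8, GFI1 (repressed) and MYB, and the right panel the log2 ratio of sgCEBPD 3 to the control mean. The 4 lists spread around 0 on the left (medians 0.12, 0.18, 0.06 and -0.04), and on the right the MYB targets have the lowest median (-0.75).

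Of the MYB family and its coactivators, 6 were tested, MYB among them. edgeR called 0 (1 and 2 at an unadjusted p under 0.05 in the 8-library and 7-library fits). limma-voom called 0, and DESeq2 called MYB alone, with 7 libraries. EP300, the acetyltransferase that MYB recruits, was at 190.5 ± 7.27 CPM in the controls (SD, n = 4), 206 ± 8.30 CPM in sgCEBPD 1, 2 and 4 (SD, n = 3) and 259.8 CPM in sgCEBPD 3 (edgeR adjusted p = 0.282 with 7 libraries). Of the PU.1 family and its partners, 5 were tested. SPI1, IRF8 and IRF4 are among these, so the counts partly repeat results given above. edgeR called 0 (1 and 3 at an unadjusted p under 0.05), limma-voom called 0, and DESeq2 called IRF8 and IRF4, with 7 libraries. Of 19 other monocyte, dendritic and granulocyte fate factors, 13 were tested. edgeR and limma-voom called 0 with 8 libraries (4 at an unadjusted edgeR p under 0.05), DESeq2 called ID1 and TCF4, and with 7 libraries TCF4 fell under all 3 tools. For the lists of this paragraph, 11.4% and 15.5% of all genes tested had such an unadjusted p with 8 and 7 libraries. DESeq2 called 2.11% and 4.24% of all genes tested, and with 7 libraries edgeR called 2.01% and limma-voom 1.55%. TCF4, which encodes E2-2, the factor of plasmacytoid dendritic cells, was at 48.8, 39.3, 53.5 and 51.6 CPM in the controls and at 25.9, 20.8, 21.9 and 29.1 CPM in sgCEBPD 1, 2, 3 and 4. Every sgCEBPD library lay below every control, and the log2 fold change of TCF4 was -0.93 with 7 libraries (SE 0.14, edgeR adjusted p = 0.0149). The edgeR adjusted p was 0.0579 with 8 libraries, 0.0576 with 7 less sgControl 1 and 0.0529 with 7 less sgCEBPD 1.

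Genes whose log2 CPM ran most closely with each of the 5 abundant factors were listed as a description, since libraries share their group and the values carry no test. Over 8 libraries the closest gene to MYB was CLU (Pearson r = 0.985), at 188 CPM on average in the controls, 69.2 CPM in sgCEBPD 1, 2 and 4 and 93.7 CPM in sgCEBPD 3, with LIN7A and SLPI next (r = 0.976 and 0.968). The closest to IRF8 was TMEM236 (r = 0.975), at 9.60, 28.0 and 16.9 CPM in the same order, with CEP41 and CD74 next (r = 0.962 and 0.961). The closest to IKZF1 were STK24, NMI and DTX3L (r = 0.982, 0.980 and 0.960). The closest to SPI1 was SNAPC3 (r = 0.995), at 41.1, 45.4 and 77.0 CPM, with BTBD10 and TARS1 next (r = 0.994 for both). The closest to GFI1 were EMC10, PRDM8-AS1 and ENSG00000287993 (r = 0.977, 0.976 and 0.970). Over the 7 libraries without sgCEBPD 3 the closest genes were others in each case, with NCBP3, TRGC1 and MNDA for MYB (r = 0.997, 0.996 and 0.994) and GPATCH8, CYTIP and UBE2C for IRF8 (r = 0.991, 0.991 and 0.989). For SPI1 they were then NEDD9, PTPN6 and CBS (r = 0.975, 0.973 and 0.967). For GFI1 they were UIMC1, EIF1AD and SCARB1 (r = 0.989, 0.986 and 0.985), and for IKZF1 they were COL24A1, HSD17B12 and WDR70 (r = 0.977, 0.973 and 0.968).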

How the data were processed

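RNA of 8 OCI-AML5 libraries, 4 with control guides and 4 with guides against CEBPD, was sequenced from polyadenylated RNA extracted with phenol-chloroform, per the labels' protocols. The authors deposited unnormalised read counts per gene. FastQC, HISAT2, DESeq2 and the build hg38 are named in the submitters' processing notes. Their versions, the read counter, whether it used strand, and its gene models are not given in the sources used here. Reads of overlapping genes are therefore uncertain. Of the 23562 rows, 116 carried a symbol already used and were tested on their own.

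These counts went into edgeR 4.0.16 under R 4.3.3 (filterByExpr by group, TMM, robust quasi-likelihood test, group as the only term). Benjamini-Hochberg adjustment ran over the whole set of tested genes and the threshold was 0.05. The SE was taken as |log2 fold change| over the root of the F statistic. The script was tested on simulated data with known fold changes. Log2 CPM used a prior count of 2. Alternatives were DESeq2 1.42.0, limma-voom (limma 3.58.1), other scalings, other filters on low counts, the guide number as a block and leaving out each library. Levels per kilobase and gene positions used GENCODE 29 (GRCh38).

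The 9 factors, the gene lists and the tests were chosen with earlier results of these data known. The rule for named genes took the 9 factors, CEBPD, every list gene past the threshold, the 2 genes per list with the lowest p with 7 libraries, and the 3 genes with a mean of at least 5 CPM most correlated with each factor of at least 5 CPM. List genes named outside it, with their values known, were ITGAM, CST3, CIITA, PTPRC, CD34, MPO, CD3D, CCNB1, NAB1 and ID1. TRAC, CD3G, CCNA1, ANPEP and CSF2RA were named in the same way. Poisson intervals (95%) and levels at 3 counts cover counting error only, and reads without molecular identifiers are not independent molecules.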

Additional observations from a re-analysis of the deposited data

Results flagged for a closer look

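In 2 of the 17 groups of 4 libraries examined (9 factors in 2 groups, leaving out EGR2 in the controls, which was 0 throughout), 1 library lay far from the others by Dixon's criterion. The nominal rate of this criterion is about 1 in 20 groups, or 0.85 of 17. That rate need not hold for counts as low as those of EGR2. Both flagged values were of sgCEBPD 3, in which 34.8% of all genes tested lay above the other 7 libraries and 34.9% below. The share of all genes that meet the criterion was not computed, so the 2 are not read as particular to these factors. SPI1 was at 433.4 CPM there and between 310.2 and 329.4 CPM in sgCEBPD 1, 2 and 4. EGR2 was at 3.93 CPM there and between 0.0864 and 0.662 CPM in the other 3.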

How the results depend on the processing

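With 8 libraries 11 genes passed in edgeR. This count was 292 with DESeq2, 20 with no filter and 1 with a replicate block by guide number, and between 0 and 283 when 1 library was left out, the highest without sgCEBPD 3 and the lowest without sgCEBPD 2. With 7 libraries 283 passed, and 596 with DESeq2. Leaving out 1 library gave 66 to 312, the lowest without sgControl 1. The number of factors past the threshold was 0 with 8 libraries in every setting. With 7 libraries it was 3 with DESeq2 and 3 with the replicate block, in each case IRF8, IRF4 and MYB. It was 1 (MYB) with library totals, 1 (MYB) with no filter, and 0 to 1 when 1 library was left out, with MYB passing without sgControl 2. With 7 libraries the log2 fold change of GFI1 ran from -0.15 to 0.0061 when 1 library was left out, turning positive without sgCEBPD 2. The cause of these changes was not tested.

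The guide numbers name different guides. The deviations of same-numbered libraries from their group means correlated at 0.03, 0.06, -0.08 and -0.04, so the numbers were not taken to pair the libraries. The block moved the counts to 1 with 8 libraries and 352 with 7.

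IRF4, KLF4, EGR2 and GFI1B rest on at most 60 counts a library, which limits their precision.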
